A study of Mus musculus with 3 samples.

Results

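Retinoic acid is the active form of vitamin A, and 9 genes whose products import, carry or sense retinoids were examined in the fibroblasts and the stem cell library of the series. They were chosen by name and by function, as the retinoic acid receptors Rara, Rarb and Rarg, the retinoid X receptors Rxra, Rxrb and Rxrg, the cellular retinoic acid binding proteins Crabp1 and Crabp2, and the retinol importer Stra6. All 9 were found among the 29267 genes of each table, and 7 passed the filter on low counts. Retinol reaches cells bound to a plasma carrier and can enter through STRA6, and inside the cell it is oxidised to retinoic acid. CRABP2 hands retinoic acid to receptors in the nucleus, whereas CRABP1 is best known for holding it in the cytosol and for its link to retinoic acid breakdown. On DNA a retinoic acid receptor (RAR), paired with a retinoid X receptor (RXR), sits on short repeated motifs, recruiting corepressors without ligand and coactivators with it. In embryos these genes pattern the limbs, the hindbrain and the body axis, and in stem cell cultures retinoic acid is widely used to drive differentiation.

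RNA-seq libraries of 3 cultures were compared, and the labels name no treatment for any of them. Mouse embryonic fibroblasts (MEFs), the starting cells for reprogramming in the study, came from mid-gestation embryos of the OG2 strain and from the ICR strain, with 1 library of each at passages 3 to 5. OG2 animals carry an Oct4-GFP transgene, a reporter of pluripotency, so both MEF samples differ in strain and transgene as well as in culture. The third library was labelled as naive embryonic stem cells (ESCs) of the R1 line, a single line sampled once, at passage 30. The comparison of MEFs with ESCs asks how the cells at the start of reprogramming differ from the state it aims for.

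The ESC label was checked before the genes were compared. The 8 fibroblast markers examined were all lower in that library by edgeR, with summed levels of 25550 and 25730 CPM (counts scaled to a common library size) in OG2 and ICR MEFs and 3836 CPM in the library labelled ESC. Of 12 pluripotent cell markers, 5 could be tested, and edgeR called all 5 higher and DESeq2 4. These 5 passed the filter on low counts through the third library alone, so the direction of the calls was fixed in advance. This also holds for higher calls below of genes with few or no MEF counts. Lower calls of genes that passed the filter through the MEF samples alone were likewise fixed in direction. The summed level of the 12 was 1.42 and 2.32 CPM in the MEF samples and 130.5 CPM in the third library. The defining markers Zfp42, Esrrb, Dppa5a, Utf1, Lin28a and Dppa4 were nevertheless at 0 counts there. Epithelial markers summed to 7.81 and 13.5 CPM in the MEF samples and to 449.6 CPM in the third library, with 3 of 6 called higher. Endothelial markers summed to 11.5, 11.2 and 81.0 CPM in OG2 MEFs, ICR MEFs and the library labelled ESC, with 2 of 4 called higher and 1 lower. Of the 81.0 CPM, Pecam1 gave 64.5 and Tek 16.5, while Cdh5 and Kdr had 0 counts there. Blood cell markers summed to 14.02, 5.61 and 40.16 CPM, with 1 of 4 called higher. Whether other cell types were present, and what part they would have in the values below, was not tested. The library is called by its label throughout. In bulk RNA, fewer cells that express a gene and less RNA of that gene per cell cannot be told apart. The depth was 5149312 expected counts for OG2 MEFs and 4590619 for ICR MEFs, against 1717838 for the library labelled ESC. A floor of detection of 3 counts equals 0.532, 0.58 and 2.15 CPM in that order, on the scale of all CPM values given here. All intervals given are exact 95% intervals that cover counting error only.

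Rarb is itself a classical target of retinoic acid receptors, and a stretch of its promoter window is printed here with one of Cyp26a1, the gene of a retinoic acid degrading enzyme, because these were the 2 genes, of 49 in the receptor, carrier and other pathway lists that had a promoter window, in which a receptor motif repeat was found. The search covered the nuclear receptor consensus AGGTCA with the variant AGTTCA, the variant GGGTCA and the variant GGTTCA, each of 6 bases, on both strands, placed as direct repeats with 1, 2 or 5 bases between them. RefSeq windows of 300 bases around transcription starts on GRCm38.p6 were searched. A repeat with a spacer of 5 bases was found in 32 of 32851 windows, or 0.0974%, which belonged to 31 of 27025 genes. Repeats with spacers of 1 and 2 bases were in 0.222% and 0.268% of windows. The 18 windows of 8 of the 9 genes held a single repeat, in Rarb, and Crabp2 had no window. The Rarb repeat has a spacer of 5 bases, runs in the direction of the gene and ends 36 bases before the RefSeq start of its window, at chr14:16575513-16575529. That start, at position 16575476, lies 243680 bases inside the gene as GENCODE M21 draws it, so the window is that of an internal start. The counted transcript Rarb-201 begins at 16575543 in GENCODE M21, which puts the repeat just inside its first exon in that release. It was counted at a length of 3034 bases against 3108 in GENCODE M21, so its start in the counted annotation is not known. In Cyp26a1 the repeat lies on the opposite strand, ends 15 bases before the RefSeq start, at chr19:37697776-37697792, and also has a spacer of 5 bases. Both repeats are given below 5′ to 3′ along the strand of the repeat, with 5 flanking bases on either side and the motifs in capitals. The Rarb stretch is chr14:16575508-16575534 on the minus strand, and the Cyp26a1 stretch is chr19:37697771-37697797 on the minus strand.
Rarb: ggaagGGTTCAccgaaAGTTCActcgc
Cyp26a1: aaattAGTTCAcccaaAGTTCAtcttt
The motif match describes these letters only. Cyp26a1 had 0 counts in all 3 libraries and Rarb 30, 11 and 0, in the order OG2 MEF, ICR MEF and library labelled ESC.

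Levels of the 9 genes were compared with each other in TPM, the transcript abundance after scaling by length within a library. MEFs of both strains had the same broad order, with Crabp1 highest, Crabp2 next, then Rarg, then Rxra, Rxrb and Rara close together, Rarb far lower, and Rxrg and Stra6 at 0 or 1 count. In the library labelled ESC, Crabp1 and Crabp2 were again at the top, but Rxrb and Rara were the leading receptors and Rarg and Rxra were the lowest of those with more than 1 count.

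**Figure D1:**
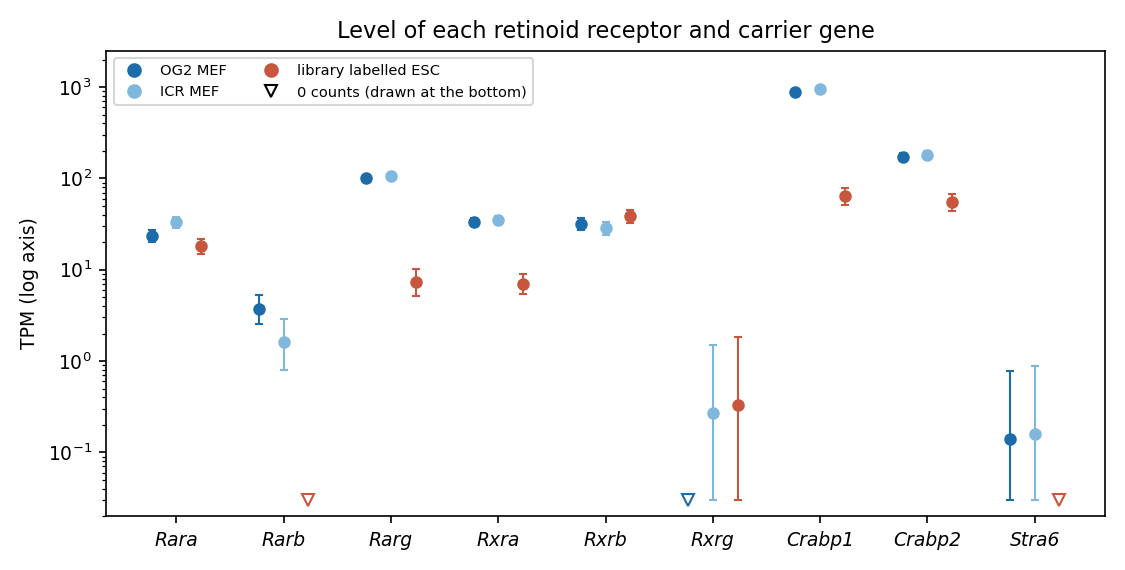
TPM of each of the 9 genes (log axis) in OG2 MEFs, ICR MEFs and the library labelled ESC, with exact 95% counting intervals as bars. Libraries at 0 counts are drawn as open triangles at the bottom, and the lower bars of genes with 1 count are cut at the axis. Crabp1 lies at 876.9 and 956.4 TPM in the MEF samples and at 64 TPM in the third library, whereas Rxrb lies between 28.46 and 38.45 TPM in all 3.

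Crabp1, a carrier gene at chr9:54764748-54773110 on the plus strand (ENSMUSG00000032291, GRCm38), had 876.9 TPM in OG2 MEFs, 956.4 TPM in ICR MEFs and 64 TPM in the library labelled ESC. These levels placed it at the 99.1 and 99.2 percentile of detected genes in the MEF samples and at the 89.5 percentile in the third library. Its counts were 1540, 1462 and 83, and the fibroblast values were close to each other and far from the third. Crabp2, the carrier that delivers retinoic acid to receptors, lies at chr3:87948666-87953376 on the plus strand (ENSMUSG00000004885) and had 171.3, 181.2 and 54.81 TPM in the same order, from 363, 333 and 85 counts. Crabp1 therefore exceeded Crabp2 5.12-fold in OG2 MEFs and 5.28-fold in ICR MEFs in TPM, against 1.17-fold in the library labelled ESC. There the counting intervals of the pair overlapped, at 51.0 to 79.3 TPM for Crabp1 and 43.8 to 67.8 TPM for Crabp2. Of the counts of both genes together, Crabp1 took 80.9% (79.1 to 82.7) and 81.4% (79.6 to 83.2) in the MEF samples and 49.4% (41.6 to 57.2) in the third library. Stra6, the importer of retinol, at chr9:58063788-58153996 on the plus strand (ENSMUSG00000032327), had 1 count in each MEF sample and 0 in the library labelled ESC, all below the floor.

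The genes with levels most like Crabp1 over the 3 libraries, by Euclidean distance in log2(TPM + 1), were B2m at a distance of 0.155, Cnn2 at 0.186 and Hspa5 at 0.334. B2m, the light chain of class I histocompatibility molecules, had 931.6, 895.8 and 60.24 TPM. Cnn2, an actin-binding calponin, had 871.1, 840.9 and 63.79 TPM, and the endoplasmic reticulum chaperone gene Hspa5 had 884.3, 1056 and 79.1 TPM.

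Among the RAR genes, Rarg was the most abundant in MEFs of both strains. Rarg, at chr15:102234938-102257517 on the minus strand (ENSMUSG00000001288), encodes the receptor found mainly in skin, cartilage and mesenchyme, and had 99.82 TPM in OG2 MEFs, 105.5 TPM in ICR MEFs and 7.3 TPM in the library labelled ESC. Rara, at chr11:98927818-98974942 on the plus strand (ENSMUSG00000037992), encodes the widely expressed RAR and had 23.66, 33.06 and 18.03 TPM. Rarb, at chr14:16430839-16819156 on the minus strand (ENSMUSG00000017491), had 3.73, 1.6 and 0 TPM. Of the TPM of the 3 RAR genes, Rarg took 78.5% and 75.3% in the MEF samples and 28.8% in the library labelled ESC, and Rara took 18.6%, 23.6% and 71.2%. The leading RAR gene was thus Rarg in both MEF samples and Rara in the third library. In counts, which do not depend on the length estimate, the Rara share was 19.7% (17.1 to 22.5), 25% (22.1 to 28.1) and 74.1% (66.1 to 81.1), so the intervals of the MEF samples and of the library labelled ESC did not overlap. The 0 Rarb counts among 143 RAR counts there allow a share of up to 2.55%.

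Rarb shares sequence with a neighbour on the other strand. The tables hold 1 Rarb transcript, Rarb-201, with a length of 3034 bases against 3108 in GENCODE M21, so they rest on another annotation release. Of the 3108 bases in GENCODE M21, 1793 lie within exons of Top2b, the gene of DNA topoisomerase II beta, between positions 16430839 and 16435258 of chromosome 14. Top2b had 830, 865 and 70 counts in OG2 MEFs, ICR MEFs and the library labelled ESC. Whether the counting used strand is not given in the sources used here, so reads from the shared stretch cannot be told apart and the low Rarb counts are uncertain. None of the other 8 genes overlapped exons of another gene.

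The RXR genes encode the shared partners of RARs and of many other nuclear receptors. Rxra, at chr2:27676440-27762957 on the plus strand (ENSMUSG00000015846), had 33.52 TPM in OG2 MEFs, 34.81 TPM in ICR MEFs and 6.99 TPM in the library labelled ESC. Rxrb, at chr17:34031812-34038399 on the plus strand (ENSMUSG00000039656), had 31.67, 28.46 and 38.45 TPM. Within each MEF sample the counting intervals of Rxra and Rxrb overlapped, whereas in the third library Rxrb, at 32.8 to 44.9 TPM, lay above Rxra, at 5.39 to 8.91 TPM. Rxrg, at chr1:167598384-167639623 on the plus strand (ENSMUSG00000015843), a receptor gene mainly of muscle and brain, had 0, 1 and 1 count, below the floor in every library. Rxrb took 48.6% and 44.8% of the RXR TPM in the MEF samples and 84.0% in the library labelled ESC. Its share of RXR counts was 31.6% (28 to 35.5), 28.8% (24.9 to 32.9) and 71.1% (64.7 to 76.8).

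**Figure D2:**
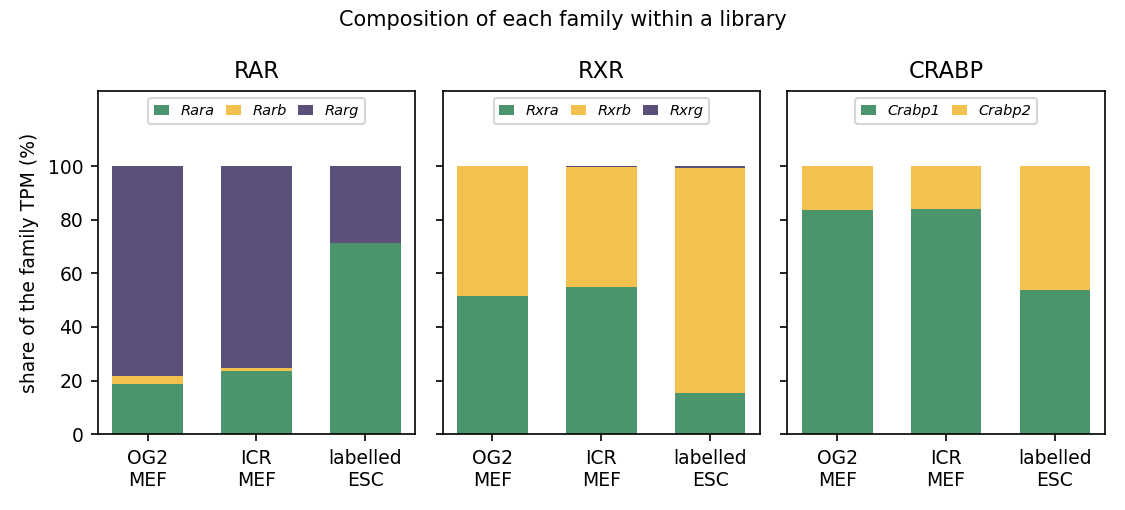
Share of each gene in the summed TPM of its family (percent, stacked bars) for the RAR, RXR and CRABP genes in OG2 MEFs, ICR MEFs and the library labelled ESC. Rarg and Crabp1 fill most of their bars in both MEF samples, and Rara (71.2%) and Rxrb (84.0%) fill most of theirs in the library labelled ESC.

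The sum of the 6 receptor genes was 192.4 TPM in OG2 MEFs, 203.7 TPM in ICR MEFs and 71.1 TPM in the library labelled ESC. In CPM it was 263.9, 258.1 and 266, so between these scales only TPM gave a lower sum. The median difference of all genes with 10 counts or more was -1.54 log2 units in TPM and -0.43 in CPM. No sum was taken after the GC-content correction given below, which lowered the differences of Rara, Rarg, Rxra and Rxrb. The RAR genes summed to 127.2, 140.2 and 25.33 TPM and to 155.1, 157.9 and 102.5 CPM, lowest in the library labelled ESC on both scales. The RXR genes summed to 65.19, 63.54 and 45.77 TPM but to 108.8, 100.2 and 163.5 CPM, so their direction depended on the scale. The ratio of RXR to RAR transcripts was therefore 0.512 and 0.453 in the MEF samples and 1.81 in the third library. In CPM, where a long transcript counts for more, the ratio was 0.701, 0.635 and 1.59, so RAR exceeded RXR in both MEF samples and RXR exceeded RAR in the library labelled ESC on either scale. Crabp1 and Crabp2 together reached 5.45, 5.58 and 1.67 times the receptor TPM. In CPM, which is not scaled by length, they reached 1.28, 1.35 and 0.453 times the receptor sum, so the excess in the library labelled ESC was seen in TPM alone.

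For the comparison of the same gene between libraries, counts were scaled to CPM with trimmed mean of M-values (TMM) factors and given as log2(CPM + 1), a scale that understates changes of low genes. Of the 7 genes that could be tested, edgeR called Rara and Rxrb higher and Rarb, Rarg and Crabp1 lower in the library labelled ESC, and did not call Rxra and Crabp2. Over all 12663 genes tested, 31.4% were called higher and 36% lower, so 2 and 3 of 7 genes are near the background of this comparison. The median difference of the 7 genes was -0.63 log2 units, or -0.50 with the 0 of Rarb set to the floor, beside -0.41 and -0.31 over all genes tested. Counted by size, 1 of the 9 genes (Rxrb) exceeded both MEF samples by at least 1 log2 unit, against 21.9% of all genes with a count. At least 1 unit below both lay 3 (Rarb, Rarg and Crabp1), against 25.9%. For Rarb this rests on 0 counts in the library labelled ESC. Its level in ICR MEFs, 2.13 CPM, was under the floor of that library, 2.15 CPM. Rarb passed the filter on low counts through the MEF samples alone, so the direction of its call was fixed in advance. The test has 1 residual degree of freedom. Its spread comes from the pair of MEF samples, and the lone library labelled ESC is assumed to vary like them. Nothing in the labels says more of how the MEF cultures were replicated, so these p-values measure only the spread between these samples.

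**Figure D3:**
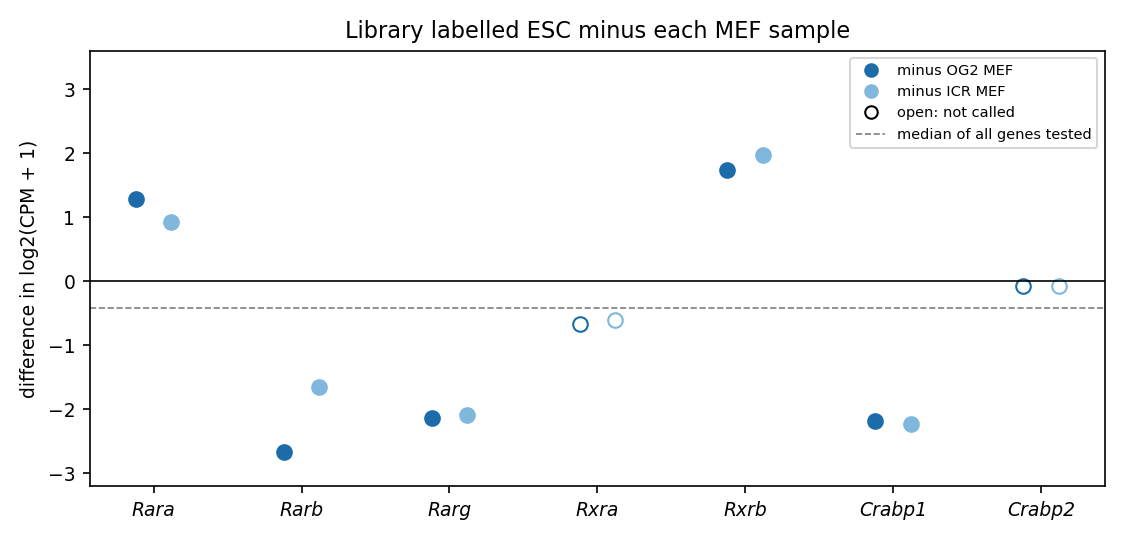
Difference in log2(CPM + 1) between the library labelled ESC and each MEF sample, 1 pair of points for each of the 7 genes tested, with filled points for genes called by edgeR and the median of all genes tested as a dashed line. Rara and Rxrb lie above 0 against both strains, and Rarb, Rarg and Crabp1 lie at -1.65 or lower against both. The Rarb points rest on 0 counts in the library labelled ESC.

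Rxrb had 34.4 CPM in OG2 MEFs, 28.8 CPM in ICR MEFs and 116.2 CPM in the library labelled ESC, from 194, 149 and 162 counts. The third library stood above both MEF samples, which were close to each other. The difference was 1.85 log2 units over a MEF mean with an SD of 0.18 (n = 2), a 3.67-fold rise, and edgeR gave a log2 fold change of 2.04 ± 0.18 (SE) with an adjusted p of 1.35e-05. Rara had 30.5, 39.5 and 76.0 CPM, from 172, 204 and 106 counts, and again the third library was the highest. Its difference was 1.11 log2 units with a MEF SD of 0.25 (n = 2), or 2.17-fold, and edgeR gave 1.29 ± 0.22 (SE) with an adjusted p of 6.15e-04. Against ICR MEFs alone the Rara difference was 0.93 log2 units and against OG2 MEFs 1.29. Transcripts of Rara and Rxrb were rich in G and C, at 59.3% and 60.5%, the 94.7 and 97.3 percentile of genes tested. After a correction for GC content the differences were 0.16 log2 units for Rara, below the SD of the MEF samples, and 0.92 for Rxrb. On the TPM scale, where the median of all genes fell by a further 1.11 log2 units, Rara turned to -0.61 and Rxrb stayed at 0.35.

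Crabp1 and Rarg made the other side of the comparison. Crabp1 had 273.3 CPM in OG2 MEFs, 282.9 CPM in ICR MEFs and 59.5 CPM in the library labelled ESC. Its difference was -2.21 log2 units with a MEF SD of 0.03 (n = 2), with MEFs 4.67-fold higher, and edgeR gave a log2 fold change of -2.05 ± 0.20 (SE) and an adjusted p of 2.32e-05. Rarg had 119.3, 116.3 and 26.5 CPM, from 672, 601 and 37 counts, a pattern like that of Crabp1. Its difference was -2.11 log2 units with a MEF SD of 0.03 (n = 2), with MEFs 4.44-fold higher, and edgeR gave -1.98 ± 0.21 (SE) with an adjusted p of 3.67e-05. Both genes are also rich in G and C, at 57.4% for Crabp1 and 58.4% for Rarg, and after the correction for GC content their differences were larger, at -3.23 and -3.06 log2 units.

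Rarb had 5.33 CPM in OG2 MEFs, 2.13 CPM in ICR MEFs and 0 CPM in the library labelled ESC. The MEF mean was 1.73-fold the floor of 3 counts in that library, 2.15 CPM. The interval for that library against the pooled MEF counts reached up to -0.46 log2 units. The edgeR adjusted p was 0.0498, at the edge of the threshold, and it was 0.0625 with median-of-ratios scaling and 0.169 in DESeq2, which both end the call. Rxra had 74.4, 71.2 and 46.6 CPM, with both MEF samples above the third library. The Rxra difference of -0.63 log2 units, with an interval of -1.03 to -0.28 for the pooled counts, exceeded the MEF SD of 0.04 (n = 2), but its edgeR adjusted p was 0.0533. Without the filter on low counts edgeR called Rxra lower, at an adjusted p of 0.00882. Its GC content was 57.9%, and the difference was -1.58 log2 units after the correction for GC content and -2.14 in TPM. Crabp2 had 64.4 CPM in both MEF samples and 61.0 CPM in the library labelled ESC. Its difference was -0.08 log2 units, with an interval of -0.42 to 0.25, and the edgeR adjusted p was 0.671. The sign of this difference depended on the scaling, at 0.11 with median-of-ratios factors and -1.67 in TPM.

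Between the strains 1 of the 9 genes was at least 1 log2 unit apart (Rarb), beside 2.76% of all genes with a count. With 1 library per strain the strain itself cannot be tested, and counting intervals alone are given. Rarb counts were 30 in OG2 and 11 in ICR MEFs, a scaled ratio of 2.50 (1.22 to 5.53). Rara was the other gene whose interval left out 1, with 172 and 204 counts and ICR MEFs 1.29-fold higher (1.05 to 1.59). The OG2 to ICR ratios of Rarg, Rxra, Rxrb, Crabp1 and Crabp2 lay between 0.966 for Crabp1 (0.899 to 1.04) and 1.19 for Rxrb (0.960 to 1.49). For Crabp2 the ratio was 1.00 (0.860 to 1.16), from 363 and 333 counts.

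RSEM also gives each gene a transcript length weighted by the estimated share of its transcripts, so a change in length is a change in the estimated mix. In the library labelled ESC that length was 3129 bases for Rara, 2718 for Rarg and 2283 for Rxrb, which match the single transcripts Rara-207, Rarg-202 and Rxrb-202 of GENCODE M21 within 0.005 bases, although the tables rest on another release. In OG2 and ICR MEFs the lengths were 2762.39 and 2737.63 bases for Rara, 2570.96 and 2539.76 for Rarg and 2355.34 and 2348.14 for Rxrb, which match no single transcript. Rara has 7, Rarg 6 and Rxrb 10 transcripts in the tables. Such a match was common in the third library, in 30.2% of genes with 100 to 299 counts against 14.1% and 12.6% in OG2 and ICR MEFs. For genes with 30 to 99 counts, the range of Rarg there, the shares were 33.6%, 19.7% and 18.1%. The Rxrb estimates rested on 162 counts in the third library and on 149 in ICR MEFs, where its length matched no single transcript. Rxra stayed a mix in all 3 libraries, at 4621.66, 4573.32 and 4865.72 bases, and Crabp2 had the length of its longest transcript, 931 bases, in each.

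The rest of the pathway was described from 5 lists, as counts beside the background of 31.4% higher and 36% lower. Of 7 other retinoid carriers 3 could be tested, and 2 rose. Fabp5, a fatty acid binding protein that can carry retinoic acid to PPAR delta, had 1063, 691 and 332 counts in OG2 MEFs, ICR MEFs and the library labelled ESC, a difference of 0.58 log2 units with an edgeR adjusted p of 0.0153. In TPM Fabp5 had 465.6, 347.6 and 197.1, lowest in the library labelled ESC. Rbp4, the plasma carrier, had 12, 5 and 1 counts and was not called.

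**Figure D4:**
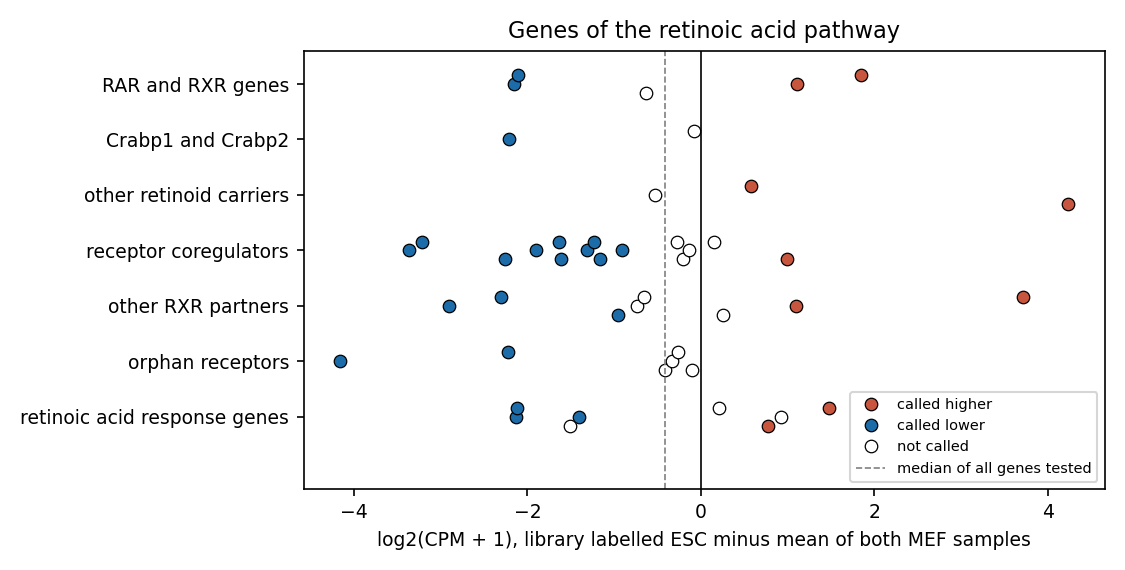
Difference in log2(CPM + 1) between the library labelled ESC and the mean of both MEF samples, 1 point for each tested gene of the receptor, carrier and other pathway lists, coloured by the edgeR call, with the median of all genes tested as a dashed line. Coregulators lie mostly on the lower side (10 of 15 called lower), and Nr1h3, an RXR partner, lies at 3.72. Nr1h3 passed the filter on low counts through the library labelled ESC alone.

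All 15 receptor coregulators, the proteins that RAR and RXR pairs recruit to repress or activate genes, could be tested. Of these 10 fell and 1 rose (Med1), with a median of -1.23 log2 units beside -0.41 for all genes tested. No value corrected for GC content is given for this list or the other pathway lists. TPM, which is scaled by length, is given for the named genes that rose. It was lowest in the library labelled ESC for Fabp5, Tgm2 and Dhrs3. For Med1 (29.2, 26.8 and 35.8 TPM) and Nr1h3 (1.4, 1.66 and 10.7 TPM) it was highest there. The part of GC content or transcript length in these differences was therefore not tested. DESeq2 called 7 lower and 1 higher. The coactivators Ncoa2 and Ep300 had 207, 215 and 4 counts and 481, 466 and 12 counts, with differences of -3.37 and -3.21 log2 units and edgeR adjusted p of 6.29e-05 and 1.06e-05. Tbl1xr1, a subunit of the corepressor complex, had 193, 220 and 10 counts and a difference of -2.26. The corepressor gene Ncor1, whose product RARs bind without ligand, had 678, 764 and 74 counts, with a difference of -1.31 and an edgeR adjusted p of 0.00118. Carm1, an arginine methyltransferase coactivator, had 769, 674 and 170 counts, a difference of -0.13 and an edgeR adjusted p of 0.842.

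Other receptors that pair with RXR moved in both directions, while of those that compete for the same DNA motifs none was called higher. Of 13 other RXR partners 8 could be tested, of which 2 rose and 3 fell, with a median of -0.69 log2 units, and DESeq2 called 2 higher and 1 lower. The liver X receptor gene Nr1h3 had 3, 6 and 32 counts, a difference of 3.72, and Ppard had 255, 245 and 12 counts, a difference of -2.30, with edgeR adjusted p of 1.11e-04 and 1.39e-04. Nr1h3 passed the filter on low counts through the library labelled ESC alone, so the direction of its call was fixed in advance. Pparg had 45, 27 and 0 counts, with a MEF mean 3.07-fold the floor of the library labelled ESC. Its interval for that library against the pooled MEF counts reached up to -1.30 log2 units. Pparg passed the filter through the MEF samples alone, so only a lower call was possible. The adjusted p of Pparg was 0.00715 in edgeR but 0.0605 in DESeq2. Nr1h2, with 263, 221 and 75 counts, was not called, while the thyroid hormone receptor gene Thra, with 250, 268 and 34 counts, fell at an edgeR adjusted p of 0.0164 but 0.244 in DESeq2. Among 6 orphan receptors 2 fell and none rose, with a median of -0.37. Of the 2, Nr2c2 passed the filter through the MEF samples alone, so only a lower call was possible. Nr2c2 had 204, 257 and 2 counts and Nr2f2 had 177, 152 and 8, with edgeR adjusted p of 8.27e-05 and 5.69e-04, while Nr2f6, with 355, 282 and 76 counts, was not called.

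Genes known to respond to retinoic acid did not share a direction. Of 14, 8 could be tested, of which 2 rose and 3 fell, with a median of -0.60 log2 units, or -0.13 with counts of 0 set to the floor. DESeq2 called 1 higher and 1 lower. Tgm2, tissue transglutaminase, had 506, 306 and 287 counts and rose by 1.48 log2 units, with an edgeR adjusted p of 2.29e-04. Dhrs3, which reduces retinaldehyde, had 172, 89 and 56 counts and an edgeR adjusted p of 0.045, but 0.223 in DESeq2. The homeobox gene Meis2, with 254, 194 and 12 counts, fell by 2.13 log2 units at an edgeR adjusted p of 4.23e-04. In TPM, Tgm2 had 52.6, 45.3 and 42.2 and Dhrs3 44.5, 27.3 and 24.3, both lowest in the library labelled ESC. Cyp26a1, Hoxb1, Cdx1 and Stra8 had no count in any library.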

How the data were processed

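RNA-seq of OG2 MEFs, ICR MEFs and R1 ESCs was analysed, with 1 library each. According to the study's methods, reads were trimmed with TRIMMOMATIC, aligned with bowtie2 to Ensembl transcripts and quantified with RSEM; the labels name Bowtie, RSEM and mm10. The tables deposited by the authors hold an expected count, TPM, FPKM (the authors' length-scaled value, not used here) and a weighted transcript length for each gene. A GC-content normalization named in the methods was taken as not applied to the expected counts, most of which are whole. RSEM divides reads that match several genes among them.

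Expected counts were rounded. Symbols and positions came from GENCODE M21 on GRCm38, and 98.3% of identifiers matched. Counts were scaled with TMM and tested with edgeR 4.0.16 in R 4.3.3 (filterByExpr, quasi-likelihood, Benjamini-Hochberg over 12663 genes, adjusted p under 0.05). TMM factors were 1.09 (OG2), 1.13 (ICR) and 0.812 (labelled ESC). The SE given with an edgeR fold change was derived from the test. It is the absolute log2 fold change before shrinkage divided by the square root of the F statistic. Levels were log2(CPM + 1), with a pseudocount of 1. The fit was checked on simulated counts. Intervals are exact Poisson or conditional binomial ones, and PCR copies were not removed by molecular identifiers. Other values used scipy 1.17.1, pandas 2.3.3 and numpy 2.4.6 under Python 3.11.15.

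The 9 genes and all lists were chosen with earlier results of these data known. Named from each other list were the 3 genes with the highest mean MEF TPM and up to 3 called genes with the largest difference. Some genes that this rule names are not reported here. Med1, Top2b, Pecam1, Tek and the genes at 0 counts were named after their values were seen. The 3 genes nearest to the highest member, which was also the one with the largest difference, were named too. Alternatives were pseudocounts of 0.1 and 5, median-of-ratios factors, TPM, a minimum of 10 counts, a GC-content correction over 20 bins, DESeq2 1.42.0, no filter, and leaving out either MEF sample. A correction over GC content and then length was added after seeing the data.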

Additional observations from a re-analysis of the deposited data

How the results depend on the processing

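Against 1 gene past both MEF samples by 1 log2 unit or more, there were 2 with a pseudocount of 0.1 (Rxrg, with 1 count, joined Rxrb), 2 with median-of-ratios factors (Rara joined it), 0 in TPM, 0 after GC-content correction, 0 after GC-content and length correction, and 1 to 2 with a MEF sample left out (2 without ICR MEFs). Against 3 below, there were 5 in TPM, 4 with a pseudocount of 0.1, 2 when it was 5, and 4 after either correction. Against 1 gene apart between the strains, there were 2 with a pseudocount of 0.1, and 0 when it was 5, in TPM or after GC-content correction. The Rara difference reversed to -0.61 in TPM and that of Crabp2 to 0.11 with median-of-ratios factors. The median of all genes with 10 counts or more shifted by 0.13 with a pseudocount of 5, 0.17 with median-of-ratios factors and -1.11 in TPM. Relative to that median, Rara lay between 0.62 and 1.69, Rxrb between 1.39 and 2.41, Rarg between -2.59 and -1.65 and Crabp1 between -4.66 and -1.76 over these alternatives. Rarb, at 0 counts in the library labelled ESC, lay between -4.66 and -0.27. DESeq2 called 2911 genes lower where edgeR called 4563. The RXR to RAR ratio was 0.701, 0.635 and 1.59 in CPM. For all of these changes the cause was not tested. edgeR without a MEF sample was not run, since no residual degree of freedom would remain. The depth of the library labelled ESC limits genes under 2.15 CPM, here Rarb, Rxrg and Stra6. No paired analysis was possible because the groups share only replicate number 1, which pairs nothing.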
